A study of Mus musculus with 8 samples.

Results

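Histone genes were taken as every non-control probe whose gene name on the array is that of a histone gene of the Hist1 to Hist4 clusters or of a variant histone (names that start with H1f, H2af or H3f3, among others). The rule found 92 probes for 71 gene names, of 56605 probes and 37074 names on the array, and it used no measured value. By type they were 14 H1, 34 H2A, 18 H2B, 15 H3 and 11 H4 probes, and 68 of the 92 carried names of the Hist1 to Hist4 clusters.

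Histones are the proteins on which DNA is wound: H2A, H2B, H3 and H4 form the nucleosome core, and H1 binds the DNA that enters and leaves it. Cluster histone genes have no introns and are transcribed mainly in S phase, and their mRNAs usually end in a stem-loop in place of a poly(A) tail, which the stem-loop binding protein Slbp recognises. Variant histones such as H3.3 and H2A.Z are made throughout the cell cycle from polyadenylated mRNAs, and they are the main source of new histone in cells that no longer divide, such as neurons. Some cluster genes also give polyadenylated mRNAs in differentiated cells, and the labelling kit used here starts its cDNA from poly(A).

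Total RNA of cerebral cortex together with striatum was measured in 4 male C57BL/6J (B6) mice and 4 male BTBRTF/ArtRbrc (BTBR/R) mice, an inbred subline of BTBR, a strain known for its use in autism research in the form of the BTBR/J subline, with 1 mouse per 1-colour Agilent array. The mice were aged 4 months, apart from BTBR/R replicate 1 at 6 months, and the labels name no treatment. The comparison asks which transcripts differ between the strains in this tissue. Values are scaled signals: the processed signal of each probe on the log2 scale, set so that the 75th percentile of each array is 0. Levels of different probes cannot be compared with each other.

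The 8 arrays shared 1 slide, whose column 1 held the B6 mice and column 2 the BTBR/R mice, and an effect of the column cannot be told apart from one of strain. A probe was detected on an array when the scanner software called it well above background, which held for 64.5% to 66.8% of the probes in each B6 mouse and 53.5% to 57.2% in each BTBR/R mouse. The lowest scaled signal that was detected ranged from -5.28 to -4.98 among B6 mice and from -3.97 to -3.55 among BTBR/R mice, so a dim probe could be detected in B6 mice and missed in BTBR/R mice at the same level. All 8 arrays detected 60 of the 92 histone probes. A further 5 were detected in every B6 and no BTBR/R mouse, 8 in every B6 and some BTBR/R mice, 17 in no mouse, and 2 in other combinations.

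Most H4 probes were downregulated in BTBR/R mice. A probe was called when its limma adjusted p was below 0.05 and the change was at least 2-fold. By this rule 13 histone probes were called lower, where 2.27% of all probes were, and 8 of them were H4 probes, out of 11 on the array. Called higher were 10 histone probes, where 20.2% of all probes were. All 10 were detected on no array, and under quantile normalization the same counts were 13 lower and 0 higher. Among the 60 probes detected on all 8 arrays, 9 were called lower and 0 higher, beside 1.16% lower and 1.04% higher of all 28547 probes so detected. Without the 2-fold threshold, 26 of the 60 passed, beside 26.9% of all such probes. Of these, 23 were lower (13.9% of all such probes were) and 3 were higher.

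Over the probes detected on all 8 arrays, the median change (BTBR/R minus B6, log2) was -3.32 for 9 H4 probes, -0.50 for 12 H2B probes, -0.25 for 7 H1 probes, -0.14 for 10 H3 probes and -0.04 for 22 H2A probes, and 0.00 for all probes. By position on mm9, 11 of the 53 probes on chromosome 13, where the large Hist1 cluster lies, were called lower, as were 1 of 15 on chromosome 3, 1 of 4 on chromosome 6, 0 of 8 on chromosome 11 and 0 of 12 elsewhere. Both calls outside chromosome 13 were H4 probes. In bulk tissue, fewer cells of a type and less RNA per cell cannot be told apart.

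**Figure D1:**
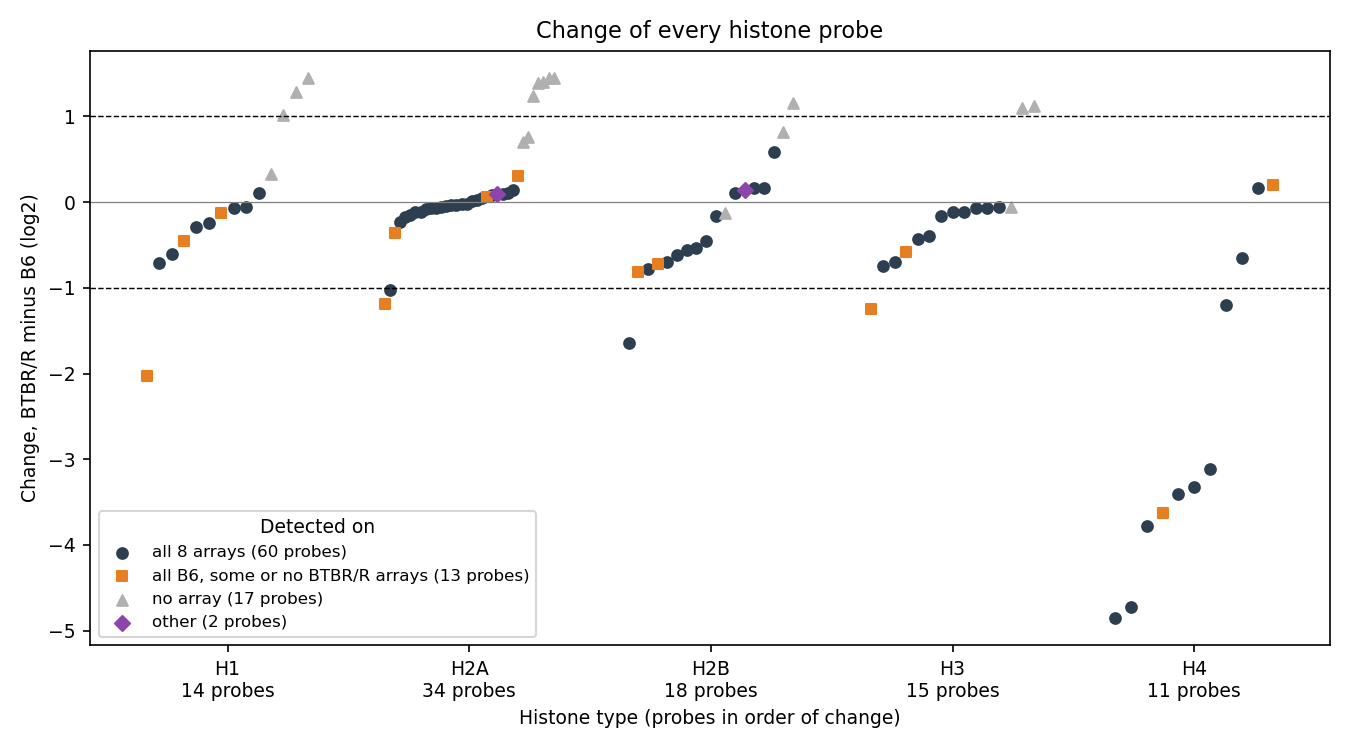
Change of each of the 92 histone probes (BTBR/R minus B6, log2, y axis) by histone type (x axis), with the probes of a type set out in order of change; the marker shows on which arrays the probe was detected, and the dashed lines mark a 2-fold change. The H4 probes reach -4.86, while no other type goes below -2.03, and every probe above the upper line is a grey triangle, detected on no array.

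The H4 genes code for the same core protein, and their probes resemble each other, so the sequences of 8 of the 11 are shown: the 7 with the largest changes and that of Hist1h4c, which overlaps 3 of them. In the first group, capitals in the Hist1h4d probe mark the 40 bases that all 4 probes cover, and capitals in the others mark the bases that differ from Hist1h4d. All are read in the 5′ to 3′ direction of the probe.
Hist1h4d, chr13:23673515-23673574 (+): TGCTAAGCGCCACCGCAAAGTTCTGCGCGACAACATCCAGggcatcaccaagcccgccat
Hist1h4j, chr13:21826989-21827048 (+): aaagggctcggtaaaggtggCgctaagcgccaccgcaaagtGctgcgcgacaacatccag
Hist1h4k, chr13:21842279-21842338 (-): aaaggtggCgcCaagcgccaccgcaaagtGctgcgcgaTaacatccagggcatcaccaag
Hist1h4c, chr13:23790223-23790282 (-): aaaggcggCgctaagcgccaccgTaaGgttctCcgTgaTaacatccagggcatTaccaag
The Hist1h4j probe differed from that of Hist1h4d at 2 of 40 shared bases, the Hist1h4k probe at 4 of 52 and the Hist1h4c probe at 7 of 52. The second group holds the second probes of Hist1h4d and Hist1h4k and the H4 probes of the other chromosomes, with no capitals.
Hist1h4d, second probe, chr13:23673749-23673808 (+): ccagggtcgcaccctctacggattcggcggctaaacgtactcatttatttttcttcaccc
Hist1h4k, second probe, chr13:21842063-21842122 (-): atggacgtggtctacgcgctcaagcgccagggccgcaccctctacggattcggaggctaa
Hist2h4, chr3:96066953-96067012 (-): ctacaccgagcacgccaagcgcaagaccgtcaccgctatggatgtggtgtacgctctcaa
Hist4h4, chr6:136752717-136752776 (-): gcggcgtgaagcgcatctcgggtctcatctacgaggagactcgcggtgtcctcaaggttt
The second Hist1h4d probe runs across the stop codon, and it shares 34 bases with the second Hist1h4k probe, 32 of them identical. With probes this alike, signal from one H4 gene on the probe of another is possible, and its share was not tested. The coordinates are those of the mm9 reference, which is the B6 genome, and whether BTBR/R mice differ in sequence under these probes was not tested, so that less transcript and weaker binding of a differing transcript cannot be told apart. No H4 probe shared a run longer than 17 bases, on either strand, with a probe outside the 92.

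Hist1h4d, which the RefSeq table names H4c4, was the most strongly downregulated histone gene. Its first probe had scaled signals of 4.03, 3.94, 3.98 and 4.10 in the B6 mice and -1.05, -0.62, -0.86 and -0.83 in the BTBR/R mice. The strains did not overlap, and the change was -4.86 (SE 0.09), or 29.0-fold lower (limma, adjusted p = 2.62e-07). Its second probe, spotted 10 times per array, read 5.77, 5.68, 5.68 and 5.78 in B6 and 0.90, 1.1, 1.0 and 1.0 in BTBR/R, with a change of -4.72 (SE 0.06; adjusted p = 4.09e-08). Both probes were detected on every array, and they gave nearly the same change from different stretches of the gene.

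Hist1h4k and Hist1h4j, neighbours at the other end of the same cluster, fell next. The Hist1h4k probe that overlaps Hist1h4d read 2.25, 2.10, 2.16 and 2.22 in B6 and -1.70, -1.42, -1.68 and -1.59 in BTBR/R, a change of -3.78 (SE 0.08; limma, adjusted p = 2.98e-07). The second Hist1h4k probe read 4.89, 4.80, 4.83 and 4.91 against 1.69, 1.88, 1.71 and 1.73, a change of -3.11 (SE 0.06; adjusted p = 2.45e-07). Again no BTBR/R mouse came near a B6 mouse. Hist1h4j read 0.24, 0.23, 0.27 and 0.26 in B6 and -3.09, -3.26, -3.66 and -3.48 in BTBR/R, where it was detected on 3 of 4 arrays, and its change was -3.62 (SE 0.12; adjusted p = 3.03e-06).

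The fall was not limited to chromosome 13. Hist2h4, the H4 gene measured in the chromosome 3 cluster, read 4.82, 4.80, 4.78 and 4.87 in B6 and 1.30, 1.53, 1.43 and 1.37 in BTBR/R, which is 10.6-fold lower (change -3.41, SE 0.06; limma, adjusted p = 1.78e-07). Hist4h4, an H4 gene that lies apart on chromosome 6, read 2.32, 2.29, 2.31 and 2.32 against -0.92, -0.93, -1.10 and -1.08, which is 9.98-fold lower (change -3.32, SE 0.06; adjusted p = 1.78e-07). Neither probe was among the 4 that share the 40 bases. The Hist2h4 probe overlapped the start of the second Hist1h4k probe by 23 bases, 3 of which differed.

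The remaining H4 probes changed less. Hist1h4i read -2.06, -1.93, -2.15 and -2.23 in B6 and -3.10, -3.22, -3.40 and -3.44 in BTBR/R, a change of -1.20 (SE 0.10; limma, adjusted p = 4.17e-05) that became -0.67 and was no longer called with normexp background correction. Hist1h4c read -0.81, -0.83, -0.96 and -0.87 against -1.62, -1.55, -1.42 and -1.49; it fell by less than 2-fold (change -0.65, SE 0.06; adjusted p = 8.04e-05). The Hist1h4c probe differed from that of Hist1h4k at 8 of 60 bases and from that of Hist1h4j at 7 of 48, while Hist1h4j and Hist1h4k differed from each other at 2 of 48. Hist1h4h did not pass the test, with a change of 0.17 (SE 0.07; adjusted p = 0.115), and its strains overlapped. Hist1h4m, dim at -4.45 to -4.03 in B6 and detected on 1 BTBR/R array, did not pass either (change 0.20, SE 0.25; adjusted p = 0.575). In total, 6 of 9 H4 genes had a called probe, all lower.

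**Figure D2:**
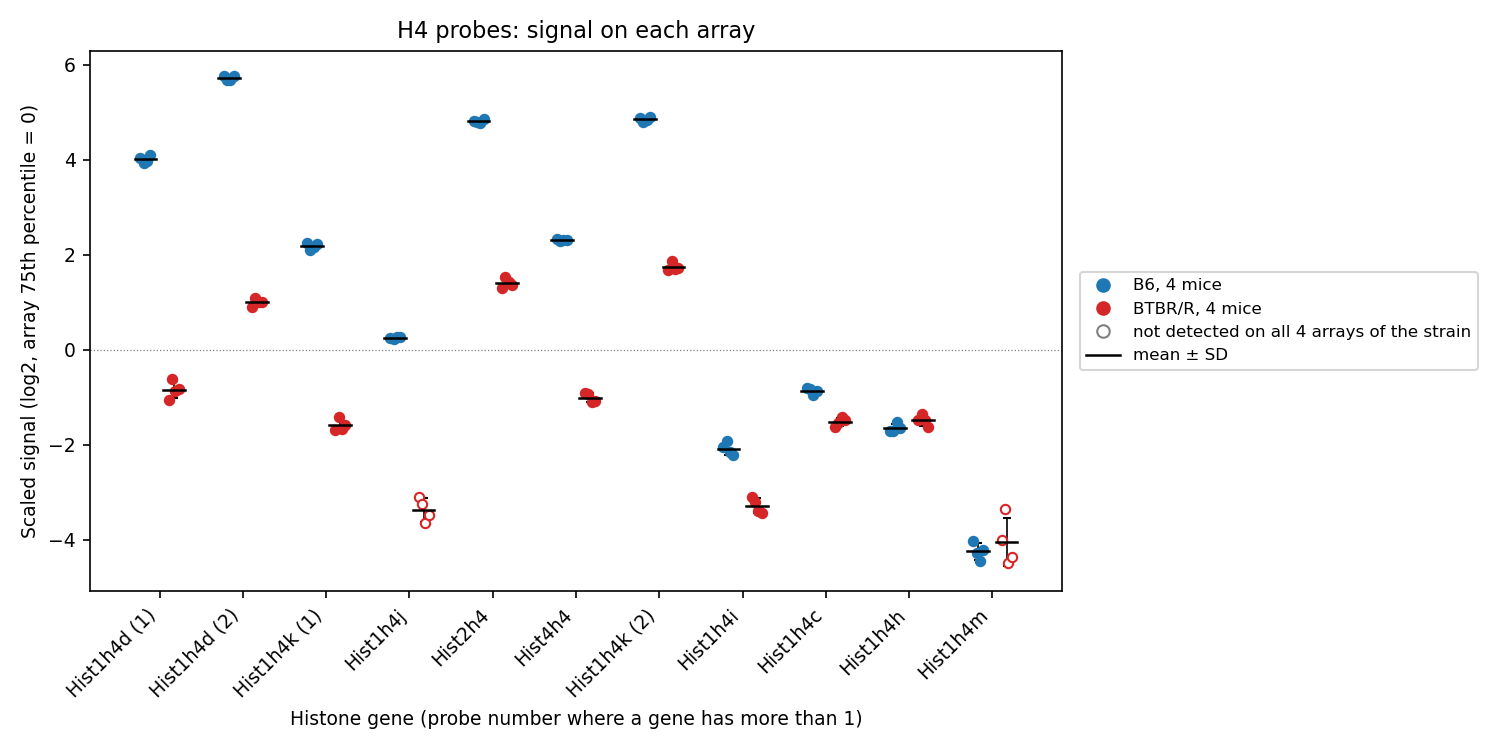
Scaled signal (log2, y axis) of the 11 H4 probes (x axis, in order of change) in each of 4 B6 mice (blue) and 4 BTBR/R mice (red), with the mean and SD as black lines and open circles where a strain's 4 arrays did not all detect the probe. The first 7 probes are separated by 3.11 to 4.86 log2 units with little spread within a strain, while Hist1h4h and Hist1h4m overlap.

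The array holds 6 further probes that it describes as histone cluster transcripts but names by a transcript ID, which the rule does not take in. The one described as Hist1 H4i read -0.53, -0.09, -0.21 and -0.68 in B6 and -4.57, -4.27, -3.37 and -4.15 in BTBR/R. It was called lower (measured change -3.71, SE 0.26; limma, adjusted p = 2.76e-05), but only 1 BTBR/R array detected it, so no fold is given. Those described as Hist1 H4a and Hist4 H4 were detected on no array, so that the fall of Hist4h4 rests on 1 probe. The probe described as Hist1 H4j was detected on 2 B6 arrays only (change -0.63, adjusted p = 0.234).

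Among H2B genes, whose product pairs with H2A in the core, the changes were smaller and mostly downward. Hist1h2be read -0.86, -0.55, -0.72 and -0.79 in B6 and -2.53, -2.29, -2.30 and -2.38 in BTBR/R. It was the 1 H2B probe called lower, 3.13-fold with no overlap (change -1.65, SE 0.09; limma, adjusted p = 2.46e-05). A transcript-ID probe described as Hist1 H2be also fell, by less than 2-fold (change -0.74, SE 0.23; adjusted p = 0.0368). A further 5 H2B probes detected on all 8 arrays were lower at adjusted p below 0.05 (limma), by less than 2-fold. They were Hist1h2bc (-0.78), Hist1h2bb (-0.69), Hist1h2bm (-0.62) and both probes of Hist2h2be (-0.54 and -0.56). With Hist1h2be, 6 of the 12 H2B probes so detected passed and were lower, beside 13.9% of all such probes.

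Some H2B probes went the other way. Hist1h2bn read 1.29, 1.49, 1.42 and 1.14 in B6 and 2.0, 1.91, 1.86 and 1.92 in BTBR/R, and rose 1.5-fold (change 0.59, SE 0.08; limma, adjusted p = 0.000939). Both probes of Hist3h2ba, in the small chromosome 11 cluster, were higher by 0.17 with adjusted p of 0.0226 and 0.0231 (limma), but did not pass in 3 and 5 of the 8 fits that each left out 1 mouse, nor in a fit with the replicate number as a block. Hist1h2bn, Hist3h2ba and its second probe were the 3 probes behind the count of higher histone probes detected on all 8 arrays. The probes of Hist2h2bb disagreed: one read -0.37, -0.46, -0.47 and -0.41 against -0.44, -0.44, -0.35 and -0.06 (change 0.11, adjusted p = 0.398), and the other, dimmer and detected on 3 BTBR/R arrays, changed by -0.72 (adjusted p = 0.00547).

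Of the H2A genes, 2 had a probe called lower. Hist1h2ab read 1.52, 1.52, 1.36 and 1.46 in B6 and 0.33, 0.59, 0.39 and 0.43 in BTBR/R, 2.04-fold lower (change -1.03, SE 0.07; limma, adjusted p = 2.76e-05). The size lies at the 2-fold threshold: it was -0.99 with normexp, and -0.997 without BTBR/R replicate 1, the 6-month-old mouse, so that neither was a call. Hist1h2ac, at -4.05, -3.74, -3.40 and -4.01 in B6 and -4.73, -5.12, -5.28 and -4.82 in BTBR/R, was detected on no BTBR/R array. Its mean B6 level lay below the mean lowest level that the BTBR/R arrays could detect, so no fold is given (change -1.18, adjusted p = 0.00153).

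In contrast, the H2A probes that sit at the end of the reading frame hardly moved. The 4 below, from chromosomes 13 and 3, are shown because they cover the same 60 bases; capitals mark the bases that differ from Hist1h2ak.
Hist1h2ak, chr13:21845304-21845363 (-): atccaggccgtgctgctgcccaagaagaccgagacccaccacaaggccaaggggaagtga
Hist1h2an, chr13:21902669-21902728 (+): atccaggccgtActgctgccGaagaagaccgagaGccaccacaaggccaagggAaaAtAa
Hist1h2af, chr13:23626113-23626172 (+): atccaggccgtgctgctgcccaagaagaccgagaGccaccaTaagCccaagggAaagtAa
Hist2h2aa2, chr3:96043781-96043840 (-): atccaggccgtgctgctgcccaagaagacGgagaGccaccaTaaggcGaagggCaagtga
Hist1h2ak read 5.27, 5.27, 5.2 and 5.19 in B6 and 5.13, 5.25, 5.16 and 5.13 in BTBR/R, with a change of -0.07 (SE 0.05; limma, adjusted p = 0.316). Changes were -0.12 for Hist1h2an, -0.06 for Hist1h2af and 0.02 for Hist2h2aa2, with overlapping strains, and none passed the test. With 5 or 6 differences in 60 bases, these probes may read several H2A genes at once, which was not tested. Of related probes only Hist1h2ag passed, with a change of -0.23 (SE 0.07; adjusted p = 0.0353), and of the 8 fits that each left out 1 mouse it passed only in those without B6 replicate 3 and BTBR/R replicate 2. A transcript-ID probe described as Hist2 H2aa1 changed by -0.38 (adjusted p = 0.0177).

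H3 genes showed 1 call of lower signal, at the edge of detection, and 2 of higher signal that no array detected. Hist1h3f read -4.51, -4.63, -4.68 and -4.56 in B6 and -6.07, -5.40, -5.89 and -6.00 in BTBR/R, where no array detected it (change -1.25, SE 0.15; limma, adjusted p = 0.000318). With every signal below the highest detection limit set to that limit, its change was 0, so no fold is given. On chromosome 3, 3 of 4 H3 probes fell by less than 2-fold: Hist2h3c2 by -0.75 and -0.70 and Hist2h3b by -0.40. The brighter Hist2h3c2 probe read 0.20, 0.83, 0.61 and 0.19 in B6 and -0.46, -0.34, 0.05 and -0.42 in BTBR/R, without overlap (adjusted p = 0.0139). The dimmer one did not pass without B6 replicate 3 or BTBR/R replicate 1, 2 or 4 (highest adjusted p = 0.0598). On chromosome 13 both H3 probes detected on all 8 arrays, Hist1h3c (-0.12) and Hist1h3d (-0.06), did not pass the test.

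H1, the linker histone, had 1 gene called lower, by the only probe of it that any array detected. The first Hist1h1d probe (chr13:23647452-23647511) read -1.80, -2.18, -2.38 and -2.40 in B6 and -4.60, -3.99, -4.17 and -4.12 in BTBR/R, where no array detected it. It was at least 2.86-fold lower (measured change -2.03, SE 0.18; limma, adjusted p = 5.62e-05), but with normexp the change was -0.88 and not a call. The other Hist1h1d probe, further along the chromosome, was detected on no array and was called higher (1.45), so its direction carries no level. Both probes of Hist1h1c, a linker histone also made outside S phase, fell by less than 2-fold, with changes of -0.72 (SE 0.13; adjusted p = 0.00387) and -0.61 (SE 0.11; adjusted p = 0.00352). Hist1h1e (-0.25) and Hist1h1b (-0.07) did not pass the test.

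**Figure D3:**
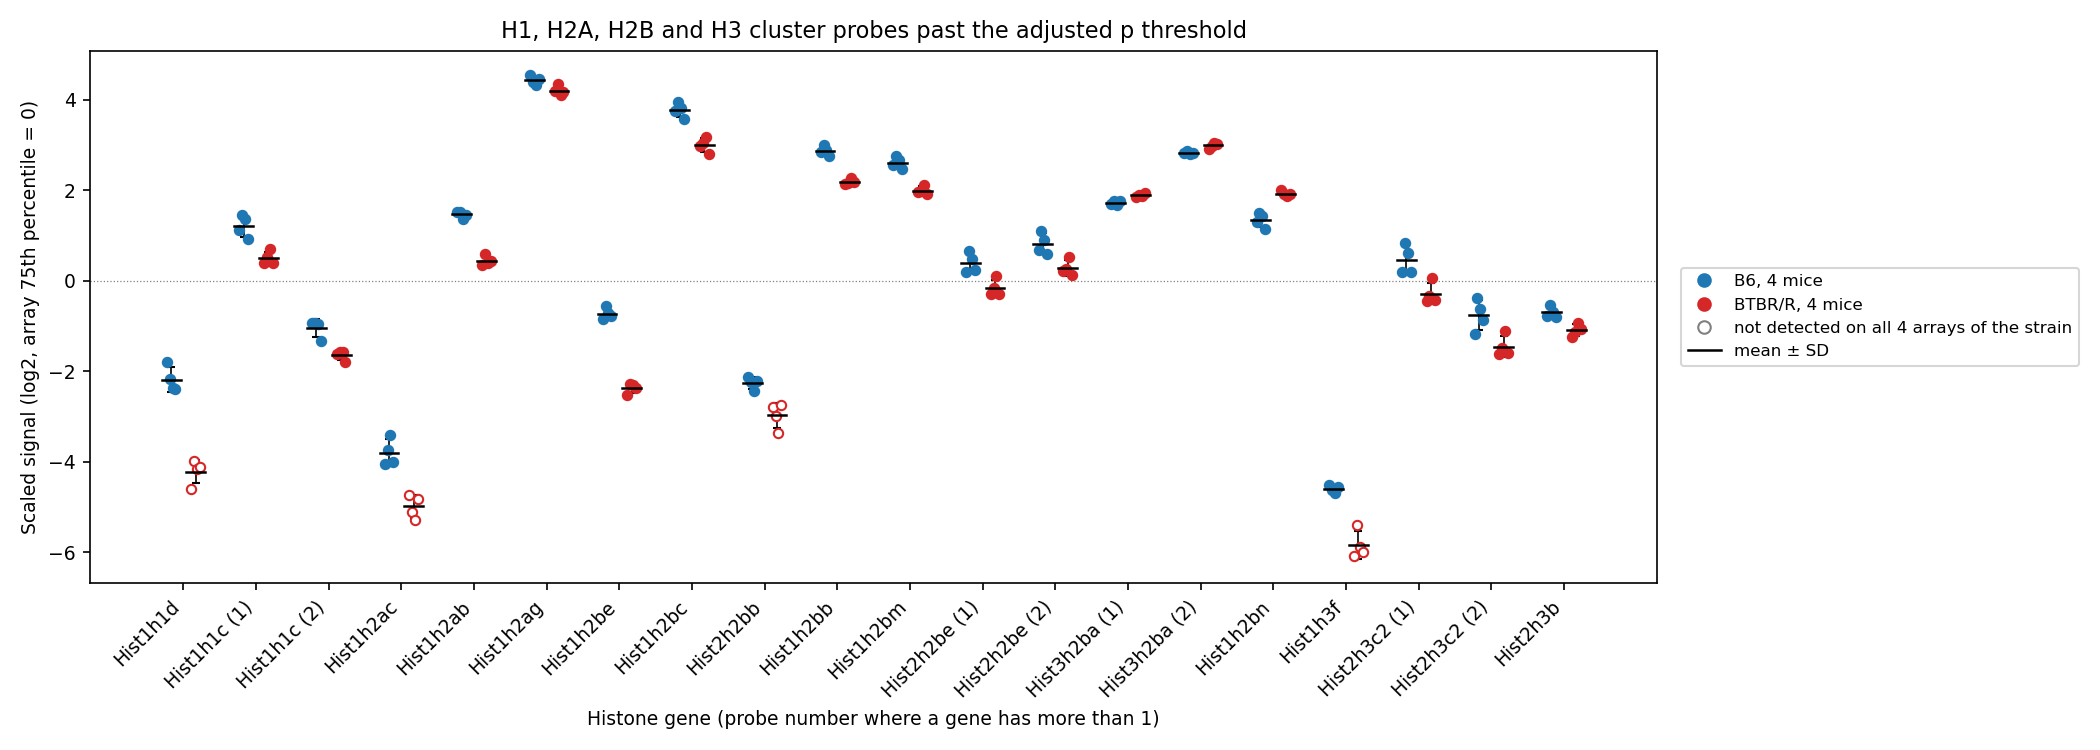
Scaled signal (log2, y axis) on each array for the 20 probes of H1, H2A, H2B and H3 cluster genes (x axis, grouped by type in that order) that were detected on all B6 arrays and had an adjusted p below 0.05; blue is B6 and red BTBR/R (4 mice each), black lines give the mean and SD, and open circles mark probes that the strain's 4 arrays did not all detect. Besides the 5 called probes, 12 changed by -0.78 to -0.23, and 3, Hist1h2bn and both of Hist3h2ba, were higher.

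Red blood cell markers varied among the B6 mice alongside many of the smaller changes. Over 7 probes of Hba-a1, Hba-a2, Hbb-b1, Hbb-b2, Hbb-bt and Alas2, genes of haemoglobin and haem synthesis, the mean scaled signal was 3.29, 4.80, 4.08 and 3.03 in the B6 mice and 2.79 to 3.07 in the BTBR/R mice, and 5 of 7 were called lower. B6 replicate 2, the mouse with the most red cell signal, was also the highest B6 mouse for 11 of the 15 H1, H2A, H2B and H3 probes that were lower at adjusted p below 0.05 and detected on all 8 arrays. That share was 73.3%, against 32.6% of all 3974 such probes, and 7 of the 15 (46.7%) put the 4 B6 mice in the same order as the red cell markers did, against 6.92% of all such probes. Among the 8 such H4 probes, B6 replicate 2 was highest for 1. Without B6 replicate 2, 12 of the 15 still passed, with a median change of -0.57 in place of -0.62, and all 8 H4 probes passed. The 3 that no longer passed were H2afv, Hist1h2ag and H1foo, which failed in 7, 6 and 6 of the 8 fits that each left out 1 mouse. Whether red cell RNA has a part in the smaller changes was not tested.

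Variant histone probes detected on all 8 arrays read nearly equal levels in both strains. The changes of these 17 probes lay between -0.29 and 0.14. Of 2 further probes, each detected on 3 BTBR/R arrays, that of H1f0 changed by -0.46 and that of H2afy by 0.07. None of the 24 variant probes was called lower, but 2.27% of all probes were, so 24 are too few to set against that share. The 3 called higher were detected on no array. H3f3a and H3f3b both code for H3.3, the replacement form of H3. H3f3b read 4.34, 4.40, 4.30 and 4.40 in B6 and 4.23, 4.21, 4.35 and 4.37 in BTBR/R, with changes of -0.07 and -0.12 for its probes. H3f3a changed by -0.16 and -0.07 on its detected probes, and its remaining probe was detected on no array. H2afz, which codes for the H2A.Z variant found around active promoters, changed by -0.11 (SE 0.05; limma, adjusted p = 0.134), and its close relative H2afv had a change of -0.17 (SE 0.05; adjusted p = 0.0307). H2afv did not pass when any mouse but BTBR/R replicate 3 was left out (highest adjusted p = 0.0775) or with the replicate block (adjusted p = 0.0908).

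Further variants did not pass. H2afx, whose product is phosphorylated at DNA breaks, changed by 0.09, and H2afj by 0.05. Among names of the macroH2A family, H2afy2 changed by -0.07 and H2afy3, matched to a non-coding transcript, by -0.05. H2afy changed by 0.01 to 0.14 over its 5 probes, 1 of which lies on the strand opposite to the others. H1fx changed by -0.06 and 0.11. H1f0, the linker histone of resting cells, read -2.91 to -2.59 in B6 and -3.67 to -2.77 in BTBR/R (change -0.46, SE 0.21; limma, adjusted p = 0.119), and a second H1f0 probe, on the opposite strand, was detected on no array.

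**Figure D4:**
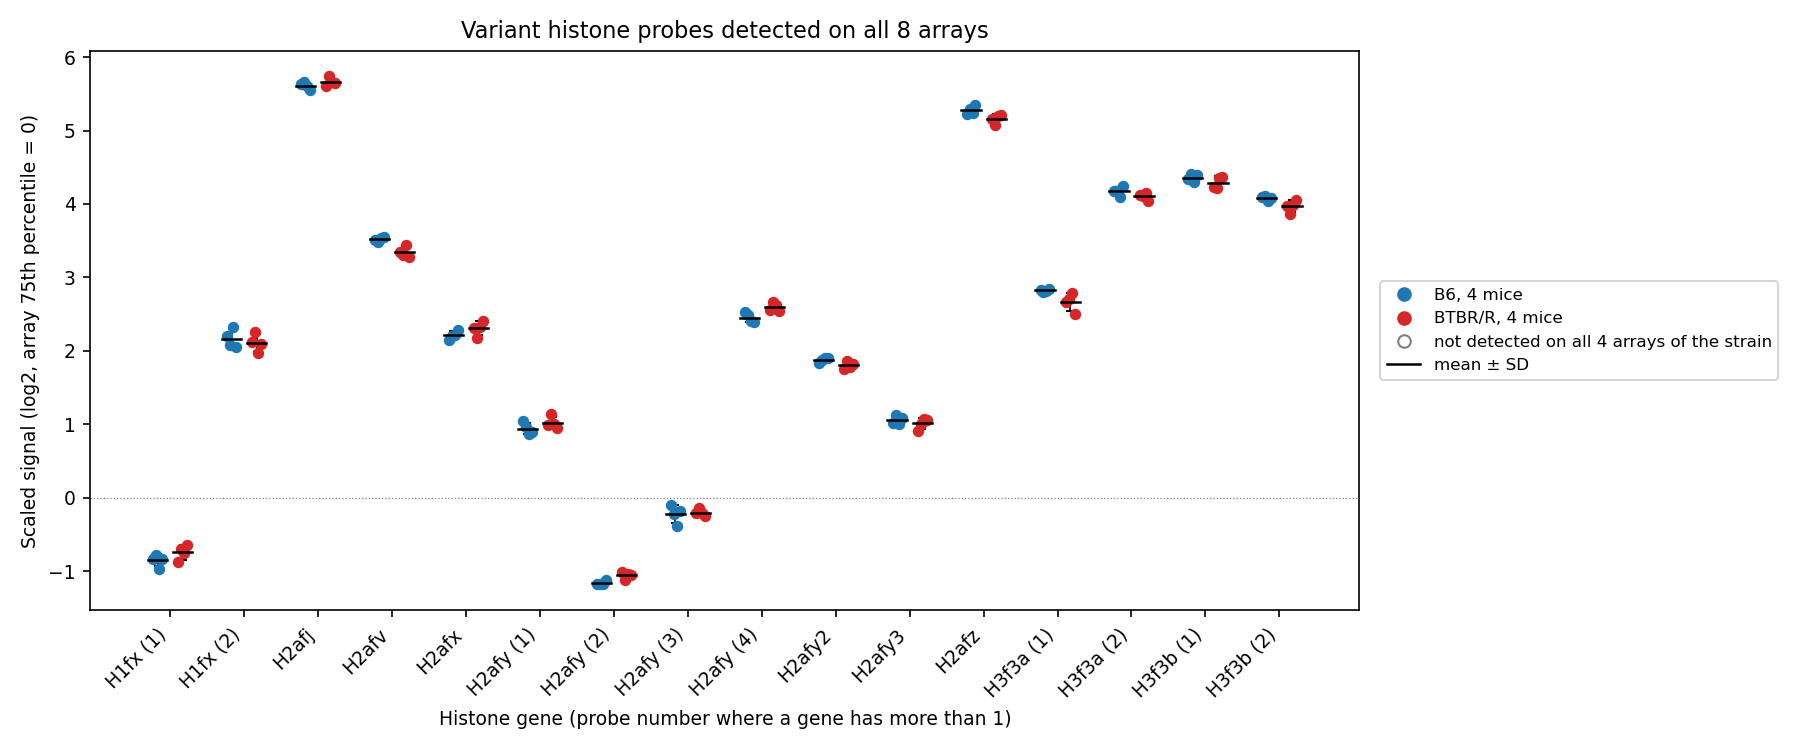
Scaled signal (log2, y axis) of 16 variant histone probes detected on all 8 arrays (x axis; the oocyte histone H1foo is left out) in 4 B6 mice (blue) and 4 BTBR/R mice (red), with the mean and SD as black lines. The strain means lie within 0.17 log2 units of each other for every probe.

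Probes named for germ line histone genes differed in detection. Probes of Hist1h1t and H1fnt (testis linker histones) and of H2afb1 and H2afb2 were detected on no array, and 3 of these 4 were called higher. Probes named for other germ line genes were detected on every array: Hist1h2aa (change -0.02), whose probe resembles those of other H2A genes, Hist1h2ba (-0.16), and H1foo, an oocyte linker histone that read -2.76 to -2.45 in B6 and -2.92 to -2.75 in BTBR/R (change -0.29, SE 0.08; limma, adjusted p = 0.026). H1foo passed without B6 replicate 4 or BTBR/R replicate 3 but not without any of the other 6 mice, nor with the replicate block (adjusted p = 0.0622) or with signals below the highest detection limit set to that limit (adjusted p = 0.0655). The called higher probes of all types (Hist1h1d, H1fnt, H2afb1, H2afb2, Hist1h2ad, Hist1h2ai, Hist2h2ac, Hist3h2bb-ps, Hist1h3a and Hist1h3g) changed by 1.10 to 1.45. None of the 10 was detected on any array, so no fold is given.

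The probe sequences were searched for letters of the stem-loop and of the polyadenylation signal. Such letters alone do not tell which mRNA form a probe read. The histone stem-loop was searched as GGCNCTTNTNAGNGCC on both strands, where N is any base. It was found in 7 of 56605 probes (0.0124%), of which 6 were histone probes, and on the opposite strand in none. Those of the 6 that were detected on all 8 arrays, and the H4 probe among them, are printed in part, with the stem-loop in capitals.
Hist1h4m, in the probe at chr13:21903960-21904019 (+): aactaaaGGCCCTTTTCAGGGCCatccaa
Hist2h2bb, in the probe at chr3:96074056-96074115 (+): cccaaaaGGCTCTTTTCAGAGCCacttta
Hist1h2bf, in the probe at chr13:23665629-23665688 (-): acccaaaGGCTCTTTTCAGAGCCaccta
Of the 6, 2 were detected on all 8 arrays, too few to set their calls against those of all probes. Hist1h4m changed by 0.20, Hist2h2bb by 0.11 and Hist1h2bf by -0.46 (limma, adjusted p = 0.0727), and Hist1h3i, detected on B6 arrays only, by -0.58 (adjusted p = 0.123). The other 2, Hist1h3a and Hist1h3g, were called higher but detected on no array. The polyadenylation signal AATAAA was in 5 histone probes (5.43%), against 9.77% of all probes.

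The H4 genes share a promoter element. In the RefSeq windows of GRCm38.p6, from 250 bases before to 50 after each gene start, GGTCCG, the core of the element bound by the H4 factor Hinfp, was searched on both strands. It stood in all 8 H4 genes that had a window and in 9.44% of 27025 genes, and in 1 of 35 other cluster histone genes, an H3 gene. The windows around it are shown for H4 genes that fell (Hist1h4d, Hist1h4k, Hist4h4), fell by less than 2-fold (Hist1h4c) or did not pass (Hist1h4h), with GGTCCG in capitals.
Hist1h4d, chr13:23581509-23581550 (+): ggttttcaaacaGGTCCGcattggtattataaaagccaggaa
Hist1h4k, chr13:21750556-21750597 (-): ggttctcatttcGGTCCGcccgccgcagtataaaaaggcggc
Hist4h4, chr6:136804434-136804475 (-): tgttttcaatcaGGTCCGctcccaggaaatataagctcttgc
Hist1h4c, chr13:23698475-23698516 (-): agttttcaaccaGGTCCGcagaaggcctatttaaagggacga
Hist1h4h, chr13:23531027-23531068 (+): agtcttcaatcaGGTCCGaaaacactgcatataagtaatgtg
Since all 8 held it, the letters did not separate the 5 called genes from the 3 others. CCAAT, on either strand, stood in 2 of the 8 H4 windows, in all 35 windows of other cluster histone genes and in 41.1% of all genes. TATAAA, on either strand, stood in 4 of 5 called and 1 of 3 other H4 genes, in 20 of the 35 windows of other cluster histone genes and in 15.7% of all genes. These matches describe the letters only.

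Genes that act on histone mRNAs and histone proteins were called about as often as all probes. Of 52 detected probes for histone mRNA transcription and processing, 1 was called lower (1.92%, beside 1.16% of all probes detected on all 8 arrays) and 0 higher (median change 0.02). That probe belongs to Slbp. It read -1.17, -0.66, -0.81 and -0.93 in B6 and -3.00, -2.95, -3.20 and -3.24 in BTBR/R, 4.61-fold lower without overlap (change -2.21, SE 0.12; limma, adjusted p = 2.76e-05). The other Slbp probes detected on all 8 arrays disagreed with it, with changes of -0.09 and -0.08, and the remaining probe was detected on no array. Npat, the coactivator of histone clusters, changed by -0.05 (adjusted p = 0.654). At adjusted p below 0.05 and any size of change, 7 of the 52 probes were lower and 8 higher, 15 in all (28.8%), beside 26.9% of all probes detected on all 8 arrays. They include 1 of the probes each of Sympk, a scaffold of the cleavage complex (change -0.99, SE 0.05; limma, adjusted p = 2.63e-05), Casp8ap2 (change 0.75, SE 0.08) and Cpsf4 (change 0.72, SE 0.05), named here after their values were seen.

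Of 72 detected probes for histone chaperones and nucleosome assembly, 1 was called lower (1.39%, beside 1.16%) and 0 higher (median change -0.04). It was Hjurp, the chaperone that loads the centromeric H3 variant, which read -0.26, -0.16, -0.05 and -0.27 in B6 and -3.03, -2.97, -2.93 and -2.64 in BTBR/R, 6.54-fold lower (change -2.71, SE 0.10; limma, adjusted p = 4.92e-06). At adjusted p below 0.05 and any size, 10 of the 72 were lower and 9 higher (26.4% together, beside 26.9%). A second Hjurp probe, detected on every B6 and no BTBR/R array, was also called lower. Of 54 probes for S phase and proliferation genes, 33 were not detected on all 8 arrays, and of the remaining 21, 0 were called and 5 passed at any size (23.8%, beside 26.9%; median change -0.04).

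Non-histone genes inside the clusters were counted as well. Within chr13:21808994-24026718 (mm9), which holds 47 of the histone probes, lay 90 other probes. Of these, 7 were called lower (7.78%, beside 2.27% of all probes) and 48 higher (53.3%, beside 20.2%), while 11 of the 47 histone probes were called lower. Over the whole array, 10075 of the 11413 probes called higher were detected on no array. Of the 16 detected on all 8 arrays, 1 was called lower (Zfp322a, named after its value was seen) and 1 higher, beside 1.16% and 1.04% of all such probes. The median change of the 16 was 0.12. Of the 28 histone probes there detected on all 8 arrays, 7 were called lower, beside 1.16% of all such probes. In the chromosome 3 cluster, neither of the 2 other probes was detected on all arrays.

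Markers of the cell types in the tissue were counted among probes detected on all 8 arrays. The red blood cell markers, given above, were left out of this count. Of the 95 others, 2 were called lower and 1 higher (3.16% together, beside 1.16% lower and 1.04% higher of all such probes). At any size of change 26 passed (27.4%, beside 26.9%). The calls were 0 of 9 for cortical projection neurons, 1 of 17 for striatal projection neurons (Pde10a, change -1.07), 0 of 10 for inhibitory neurons, 0 of 14 for astrocytes, 0 of 14 for oligodendrocytes, 0 of 4 for their precursors, 2 of 10 for microglia (C1qb, -1.42, and Cx3cr1, 1.71), 0 of 9 for endothelium and 0 of 8 for choroid plexus. At any size, 6 of the 10 microglia and 4 of the 9 endothelium probes passed. The mean level of the choroid plexus probes ranged from -2.24 to 0.39 among the B6 mice and from -1.30 to -0.07 among the BTBR/R mice. With so wide a spread, 0 calls do not show equal levels of these markers. The median changes of these lists lay between -0.26 (oligodendrocytes) and 0.14 (inhibitory neurons), and that of the red blood cell markers was -1.18. The part of cell composition in the histone changes was not tested.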

How the data were processed

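Male B6 and BTBR/R mice (4 per strain) were grouped by the strain in the labels. The authors deposited scanner intensities of every spot (Agilent Feature Extraction 10.7.3.1 per the submitters' processing notes), among them the processed signal, which is background subtracted with low values replaced by a surrogate. The authors also deposited log2 values of the same arrays, which differed from the log2 processed signal by 1 constant on each array (99.97% or more of the probes lay within 0.01 of it). Here, control spots and 36 to 52 outlying spots per array were left out, repeated spots of a probe were averaged, and the log2 processed signal was scaled to the 75th percentile of each array. All 56605 probes were fitted with limma 3.58.1 (lmFit, eBayes) under R 4.3.3, and p-values were adjusted by Benjamini and Hochberg across the whole table; each p measures the spread between 4 mice per strain, and an adjusted p in the text comes from this fit unless a left-out mouse, the replicate block or another setting is named beside it. Tested on simulated data for this comparison, the fit called 97 of 100 probes changed by 2 log2 units, 98 of 100 changed by 4, and 7 unchanged probes, in a table of 56583 probes. The simulated table held no strain difference in background, and its changed probes were detected on all 8 arrays. It therefore cannot show how often undetected probes are called. In the real data, 10075 of the 11413 probes called higher were detected on no array. The number of arrays and the detection limit set the precision. Counting, sequence searches and plots were done in Python 3.11.15 with pandas 2.3.3, numpy 2.4.6 and matplotlib 3.10.9.

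For a probe detected on every array of 1 strain and none of the other, a bound compares the measured mean of the brighter strain with the higher, per array, of the detection limit and the probe's own signal. Gene names and positions (mm9) came from the array annotation, and 63 of 71 gene names were matched by accession to the RefSeq table (GRCm38.p6 for promoters). Sequences of H4 and H2A probes were aligned without gaps. Genes named are those with a called probe detected on every array of a strain, variant and germ line histone genes whatever their values, and called genes of the lists; other members named were chosen after their values were seen. The histone genes and all lists were chosen with earlier results of these data known. Alternatives were normexp (offset 50), quantile normalization, scaling by the median or by detected probes, the authors' log2 values, both detection filters, a floor at the highest detection limit, the methods' t-test, a replicate block, and leaving out each mouse in turn; the count without a 2-fold threshold was added after the data were seen. No columns of other samples were held in the files (0 left unused).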

Additional observations from a re-analysis of the deposited data

Results flagged for a closer look

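Among 64 strain groups of named probes that were tested for a mouse far from the other 3, which chance alone marks in about 1 of 20 groups, 1 was marked. For a probe of H2afy, a macroH2A gene, B6 replicate 4 read -1.11 where the other B6 mice read -1.18 to -1.17, so the distance is small.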

How the results depend on the processing

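The 13 histone probes called lower stayed 13 under quantile normalization, median scaling, scaling by detected probes, the authors' log2 values, the methods' t-test and the filter on detection in 1 strain. They were 11 with the floor, 9 among probes detected on all 8 arrays and 8 with normexp, which no longer called Hist1h1d, Hist1h2ab, Hist1h2ac, Hist1h3f and Hist1h4i. The 10 called higher fell to 0 with the floor, with normexp, with quantile normalization, among probes detected on all 8 arrays and among those detected on every array of a strain; over all probes the calls numbered 12697, against 789, 563, 2200, 631 and 1557 under these settings. All 8 H4 calls were kept under each alternative except normexp (7 of 8) and detection on all 8 arrays, where only 7 were tested. Leaving out each mouse in turn gave 12 to 13 called lower, 7 to 10 called higher, 8 to 9 called among probes detected on all 8 arrays, and 19 to 22 lower at any size. The replicate numbers did not pair the mice (correlations of deviations -0.07 to 0.16); with the replicate block 13 were called lower, 9 higher and 9 among probes detected on all 8 arrays, and 21 were lower at any size. Taken singly, the 13 probes called lower gave 230 values over the alternatives; the call was kept in 222 and lost in 8, and no value reversed. Dim probes are limited by the higher detection limit of the BTBR/R arrays.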
